A study of Homo sapiens with 12 samples.

Results

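The genes described here are the 240 protein-coding genes of human chromosome 19 whose symbol is ZNF followed by a number alone. They were chosen by symbol and position in GENCODE release 44, with no use of their expression, and all 240 were among the 28747 gene identifiers of the count table. Their expression was compared in 4 groups of DU145 cells, an established human prostate cancer line that grows without androgen, with 3 independent replicates per group. Control cells (shCtrl) carried a lentiviral control hairpin and knockdown cells (shSigma) a lentiviral hairpin against the gene under study. Both are stable lines of the same parent, cultured either adherent, in bulk, or as tumor spheres, which form without attachment in serum-free medium with growth factors. The study used a pair of knockdown hairpins, and the labels do not give which one these libraries carried, so the shSigma line is 1 line as a model of the knockdown. The replicates are cultures of a line, so an effect of the hairpin cannot be told apart from another difference between the lines. Below, a knockdown effect means shSigma against shCtrl. Both cultures were grown from the same lines, so a change seen in both is not independent evidence for the knockdown.

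Most of these genes encode C2H2 zinc finger proteins, in which an array of fingers reads a DNA sequence, and in many of them a KRAB domain binds the corepressor TRIM28. TRIM28 brings in SETDB1, a histone methyltransferase, and the heterochromatin proteins CBX1, CBX3 and CBX5, and many of the bound sites are transposable elements. The genes arose by repeated duplication and lie in dense clusters on chromosome 19, so neighbours are often near-identical paralogs.

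Total counts ran from 16472722 to 26957777 per library. Summed leukocyte and endothelial markers reached at most 0.424 and 0.904 CPM (counts scaled to library size). Fibroblast markers summed to between 3.52 and 26.5 CPM, mostly from COL1A1, while DCN and PDGFRB reached at most 0.166 and 0.705 CPM in any library. The 5 epithelial markers KRT8, KRT18, KRT19, EPCAM and CDH1 summed to 878 to 964 CPM in adherent shCtrl, 1140 to 1452 in adherent shSigma, 2284 to 2348 in tumor sphere shCtrl and 896 to 954 CPM in tumor sphere shSigma libraries. The keratins KRT8, KRT18 and KRT19 rose in adherent cells after the knockdown (0.76, 0.58 and 1.91 on the log2 scale), while EPCAM fell from 235 ± 26.2 to 30.9 ± 1.36 CPM (mean ± SD, n = 3, as throughout) and CDH1 from 26.8 ± 0.0901 to 12 ± 1.71 CPM. In tumor spheres CDH1 fell from 726 ± 46.3 to 27.8 ± 3.34 CPM and EPCAM from 613 ± 44.1 to 61.9 ± 1.53 CPM. VIM, a mesenchymal gene, rose from 882 ± 46.4 to 1103 ± 44.7 CPM in adherent cells and from 170 ± 18.3 to 774 ± 31.0 CPM in tumor spheres. The part of these shifts in the results was not tested. Adherent shSigma replicate 3 and adherent shCtrl replicate 1 departed from their group means in the same direction (r = 0.706 across genes), and counts without them are given where they bear on a result. Fewer cells of one kind and less RNA per cell cannot be told apart in such bulk libraries.

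A rule on counts, given below with its background, picked out 5 members that were almost silent in one line and expressed in the other, namely ZNF69, ZNF43, ZNF506, ZNF730 and ZNF350. The 250 bases before the start of 4 of them are shown, as given by RefSeq on GRCh38.p14, so that their sequence can be set beside their expression. They lie on chromosome 19 at chr19:11887532-11887781 (plus strand) for ZNF69, chr19:21836183-21836432 (minus strand) for ZNF43, chr19:23116775-23117024 (plus strand) for ZNF730 and chr19:51986841-51987090 (minus strand) for ZNF350. Each is written from 5′ to 3′ on the strand of its gene, and capitals mark CpG dinucleotides, the sites of DNA methylation. For ZNF43 and ZNF730 the RefSeq start lies inside the gene as GENCODE draws it.
ZNF69: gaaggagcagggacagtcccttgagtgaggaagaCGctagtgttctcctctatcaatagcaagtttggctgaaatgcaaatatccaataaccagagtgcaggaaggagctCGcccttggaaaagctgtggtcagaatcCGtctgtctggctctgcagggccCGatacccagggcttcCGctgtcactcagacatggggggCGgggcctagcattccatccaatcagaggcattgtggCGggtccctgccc
ZNF43: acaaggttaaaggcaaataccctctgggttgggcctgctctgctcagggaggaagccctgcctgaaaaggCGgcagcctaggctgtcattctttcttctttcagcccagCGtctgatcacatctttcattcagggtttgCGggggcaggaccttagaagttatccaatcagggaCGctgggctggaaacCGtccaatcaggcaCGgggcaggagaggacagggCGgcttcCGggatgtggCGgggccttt
ZNF730: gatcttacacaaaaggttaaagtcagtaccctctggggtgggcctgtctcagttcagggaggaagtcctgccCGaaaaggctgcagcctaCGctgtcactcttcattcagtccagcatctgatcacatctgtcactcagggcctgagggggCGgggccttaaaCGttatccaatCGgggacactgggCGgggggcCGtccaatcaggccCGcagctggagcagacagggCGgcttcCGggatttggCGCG
ZNF350: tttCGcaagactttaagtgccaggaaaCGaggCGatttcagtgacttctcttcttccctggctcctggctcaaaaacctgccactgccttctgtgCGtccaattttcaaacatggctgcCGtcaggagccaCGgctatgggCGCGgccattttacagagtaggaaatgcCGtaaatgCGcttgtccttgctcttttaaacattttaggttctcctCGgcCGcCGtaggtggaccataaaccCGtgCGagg

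These windows held 7 CpG dinucleotides in ZNF69, 9 in ZNF43, 12 in ZNF730 and 15 in ZNF350, against a median of 16 over the 210 members with a window and of 11 over all 27303 promoters of the table. ZNF43 and ZNF730 lie in the same cluster and their windows were 81.6% identical, which is also the median of ZNF43 against the windows of that cluster (80.4% for ZNF730). Every other pair of the 4 was between 59.6% and 61.2% identical. Values near 60% are also what unrelated members gave, with a median of 60.4% between ZNF43 and the cluster ZNF628 to ZNF446. The letters CCAAT, the box bound by the factor NF-Y, occurred 2 times on the coding strand in ZNF69, ZNF43 and ZNF730 and 1 time in ZNF350.

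ZNF69 (chr19:11887782-11914329, plus strand, in GENCODE) was silent in shSigma cells. Adherent shCtrl libraries held 29, 33 and 37 counts and adherent shSigma libraries 0, 1 and 0. Tumor sphere shCtrl libraries held 30, 21 and 31 counts and tumor sphere shSigma libraries 0, 0 and 0. Against a floor of 3 counts per library the level was at least 8.61-fold lower in the adherent libraries. It was at least 9.39-fold lower in the tumor sphere libraries (adjusted p = 0.000138 and 1.04e-05, from the edgeR quasi-likelihood fit, adjusted by Benjamini-Hochberg across every tested gene, here and throughout). The switched members were chosen by these counts, so the gap between the lines and the small adjusted p-values follow from the choice. They passed the low-count filter only through the line where they are high. ZNF700, a member 10.7 kb away, did not follow, with 15.3 ± 1.51 CPM in shCtrl and 14.3 ± 0.932 CPM in shSigma adherent cells (log2 fold change -0.17 ± 0.117 SE, adjusted p = 0.274) and a log2 fold change of -0.17 ± 0.0966 SE in tumor spheres (adjusted p = 0.151). ZNF440, 52.6 kb away on the other side, gave -0.22 ± 0.120 and -0.05 ± 0.142, neither of which passed the test. Of the 4 nearest tested genes, ZNF491 alone was called, in tumor spheres (-0.98 ± 0.337, adjusted p = 0.025).

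ZNF43 (chr19:21804946-21852125, minus strand) was the other member switched off. It held 109, 104 and 83 counts in adherent shCtrl libraries against 1, 0 and 2 in adherent shSigma libraries. In tumor spheres it held 58, 73 and 59 counts against 0, 0 and 1. The level was at least 25.7-fold lower in the adherent libraries and 21.8-fold or more in the tumor sphere libraries (adjusted p = 3.49e-05 and 1.58e-07). The nearest tested gene on one side, ZNF429, 249 kb away, had log2 fold changes of -0.22 in both cultures and was not called. The nearest on the other side was ZNF730, 1223 kb away, which went the opposite way.

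ZNF730 (chr19:23075210-23147221, plus strand) was switched on in shSigma cells. Adherent shCtrl libraries held 2, 1 and 1 counts and adherent shSigma libraries 33, 23 and 26. Tumor sphere shCtrl libraries held 0, 0 and 0 counts and tumor sphere shSigma libraries 17, 24 and 27. The level was at least 10.5-fold higher in the adherent libraries and 6.75-fold or more in the tumor sphere libraries (adjusted p = 9.05e-05 and 3.11e-05). ZNF724, 74.4 kb beyond it, fell by 1.24 and by 0.72 on the log2 scale (adjusted p = 0.00241 and 0.0297). ZNF91, which represses SVA retrotransposons, lies 158 kb away and fell in tumor spheres from 27 ± 1.61 to 17.2 ± 0.802 CPM (adjusted p = 3.06e-05), with 18.7 ± 1.20 and 17.9 ± 1.87 CPM in adherent cells (adjusted p = 0.337).

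ZNF506 (chr19:19785839-19821751, minus strand) was also switched on in shSigma cells. Adherent shCtrl libraries held 5, 2 and 5 counts and adherent shSigma libraries 101, 91 and 132, a log2 fold change of 4.93 ± 0.275 (adjusted p = 1.63e-05), although 2 control libraries lay above the floor of 3 counts. Tumor sphere shCtrl libraries held 2, 2 and 0 counts and tumor sphere shSigma libraries 104, 116 and 106, at least 32.3-fold higher (adjusted p = 4.22e-08). It overlaps 3 other annotated genes, 2 of them on its own strand. Its neighbours ZNF14 and ZNF253 did not rise, with log2 fold changes of -0.12 and -0.04 in adherent cells, and ZNF253 fell in tumor spheres (-0.50 ± 0.0931, adjusted p = 0.000599). ZNF101, 102 kb away, fell in both cultures (-0.34 ± 0.0972 and -0.45 ± 0.101, adjusted p = 0.0206 and 0.00224). ZNF93, a repressor of LINE-1 elements 79.2 kb away, fell in both cultures, from 7.32 ± 0.334 to 2.99 ± 0.451 CPM in adherent cells and from 7.58 ± 0.534 to 3.32 ± 0.383 CPM in tumor spheres.

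ZNF350 (chr19:51964340-51986856, minus strand), also known as ZBRK1, a partner of BRCA1, was switched on in tumor spheres and higher in adherent cells. Adherent shCtrl libraries held 1, 4 and 3 counts and adherent shSigma libraries 20, 15 and 14 (log2 fold change 2.78 ± 0.450, adjusted p = 0.00168). Tumor sphere shCtrl libraries held 1, 1 and 0 counts and tumor sphere shSigma libraries 11, 14 and 12, at least 3.67-fold higher (adjusted p = 0.00017). ZNF350 overlaps the antisense gene ZNF350-AS1, and reads of the pair cannot be told apart if strand was not used in counting. ZNF615, 4.48 kb away, was not called in adherent cells (-0.07 ± 0.142, adjusted p = 0.689) and fell in tumor spheres (-0.38 ± 0.127, adjusted p = 0.0209). ZNF649, 59.3 kb away on the other side, fell in both cultures (-1.26 ± 0.210 and -1.08 ± 0.194, adjusted p = 0.00194 and 0.000486). ZNF614 also fell in both (-0.49 and -0.30, adjusted p = 0.0112 and 0.017). ZNF613 fell in adherent cells (-0.49, adjusted p = 0.0325) and was not called in tumor spheres (-0.25, adjusted p = 0.142).

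By the rule of at most 3 counts in each library of one line and at least 10 in each library of the other, 3 of 204 members (1.47%) were switched in adherent cells and 5 of 206 (2.43%) in tumor spheres, counted over members with at least 10 counts throughout either line. The same rule marked 0.824% of 12499 protein-coding genes in adherent cells and 0.911% of 12620 in tumor spheres. Among ZNF genes of the other chromosomes it marked 0 of 199 and 1.01% of 199. With a floor of 1 count instead of 3, ZNF69 alone met it in adherent cells, and with a floor of 5 counts the same 5 members met it in both cultures.

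Of the 240 members, 7 had no count in any library, 20 had at most 3 counts in every library and 210 passed the low-count filter (filterByExpr at a minimum count of 10) over the 12 libraries. The 30 others were tested in no comparison. The members that passed were low in expression, with a median of 9.48, 9.88, 9.68 and 9.62 CPM in adherent shCtrl, adherent shSigma, tumor sphere shCtrl and tumor sphere shSigma cells against 24.1, 25.3, 26.3 and 26.7 CPM over all genes that passed. The summed level of all 240 had medians of 3339, 3296, 3198 and 3044 CPM in the same order. In adherent cells the lines overlapped, with 3164 to 3355 CPM in shCtrl and 3229 to 3654 CPM in shSigma libraries. In tumor spheres they did not, with 3178 to 3220 CPM in shCtrl and 2980 to 3098 CPM in shSigma libraries. Per kilobase of exon the highest level was that of ZNF146, a protein made of fingers with no KRAB domain, at 65.5 CPM per kb over the 12 libraries. ZNF121 (19.4 CPM per kb), ZNF302 and ZNF83 (both 14.9) and ZNF317 (11.9) followed, and ZNF302 and ZNF83 could not be ranked at this precision.

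ZNF146 held 333, 296 and 274 CPM in adherent shCtrl and 258, 249 and 300 CPM in adherent shSigma libraries, which overlapped, and the difference was not called (-0.23 ± 0.0977, adjusted p = 0.087). It was called without adherent shCtrl replicate 3 (-0.31, adjusted p = 0.0203) and without both departing libraries (-0.19, adjusted p = 0.0243). In tumor spheres it held 253, 258 and 249 CPM against 264, 256 and 263 CPM (0.04 ± 0.0465, adjusted p = 0.457). ZNF121 fell in adherent cells from 173 ± 12.9 to 143 ± 13.3 CPM (-0.34 ± 0.0784, adjusted p = 0.0089), a call lost without adherent shCtrl replicate 2, shSigma replicate 1 or shSigma replicate 2 (adjusted p = 0.154, 0.138 and 0.127). ZNF317 was not called in either culture (-0.09 and 0.14). ZNF302 was not called in adherent cells (-0.03) and was lower in tumor spheres (-0.19 ± 0.0647, adjusted p = 0.0239), a call lost without shCtrl replicate 2 or 3 or shSigma replicate 1 or 3 (adjusted p = 0.0556, 0.0509, 0.117 and 0.0753).

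After the knockdown in adherent cells, 35 of 207 tested members were higher (16.9%, against 22.3% of all 13764 genes tested) and 50 were lower (24.2%, against 27.7%). In tumor spheres, 34 of 208 were higher (16.3%, against 30.2% of 13774 genes) and 67 were lower (32.2%, against 30.9%). The median log2 fold change of the members was -0.026 in adherent cells and -0.106 in tumor spheres, against -0.014 and 0.002 over all genes tested. ZNF genes of other chromosomes gave 42 higher and 41 lower of 199 in adherent cells and 64 higher and 48 lower of 199 in tumor spheres. The members were lower in expression than all genes that passed, and no share here or below was matched for level. The adherent count of lower members was 30, 33 and 31 without shCtrl replicate 2, shSigma replicate 1 and shSigma replicate 2, and 52 without the 2 libraries that departed together. Over the 205 members tested in both cultures, 17 were higher in both, 40 were lower in both, 82 were called in neither and 2 went opposite ways. The matching counts over all genes were not made, so this overlap has no background here and is no trait of the members. The 2 that went opposite ways were ZNF554 (0.40 in adherent cells and -0.35 in tumor spheres) and ZNF331 (0.23 and -0.23). With the replicate block neither kept its adherent call (adjusted p = 0.0998 for ZNF554 and 0.146 for ZNF331), nor did either with DESeq2 (adjusted p = 0.0622 and 0.075). ZNF554 also lost a call without adherent shSigma replicate 3, tumor sphere shCtrl replicate 3 or tumor sphere shSigma replicate 2 or 3 (adjusted p = 0.0522 to 0.0788). ZNF331 did so without adherent shCtrl replicate 2 or 3, adherent shSigma replicate 1 or 3, tumor sphere shCtrl replicate 3 or tumor sphere shSigma replicate 2 or 3 (adjusted p = 0.0535 to 0.203).

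**Figure D1:**
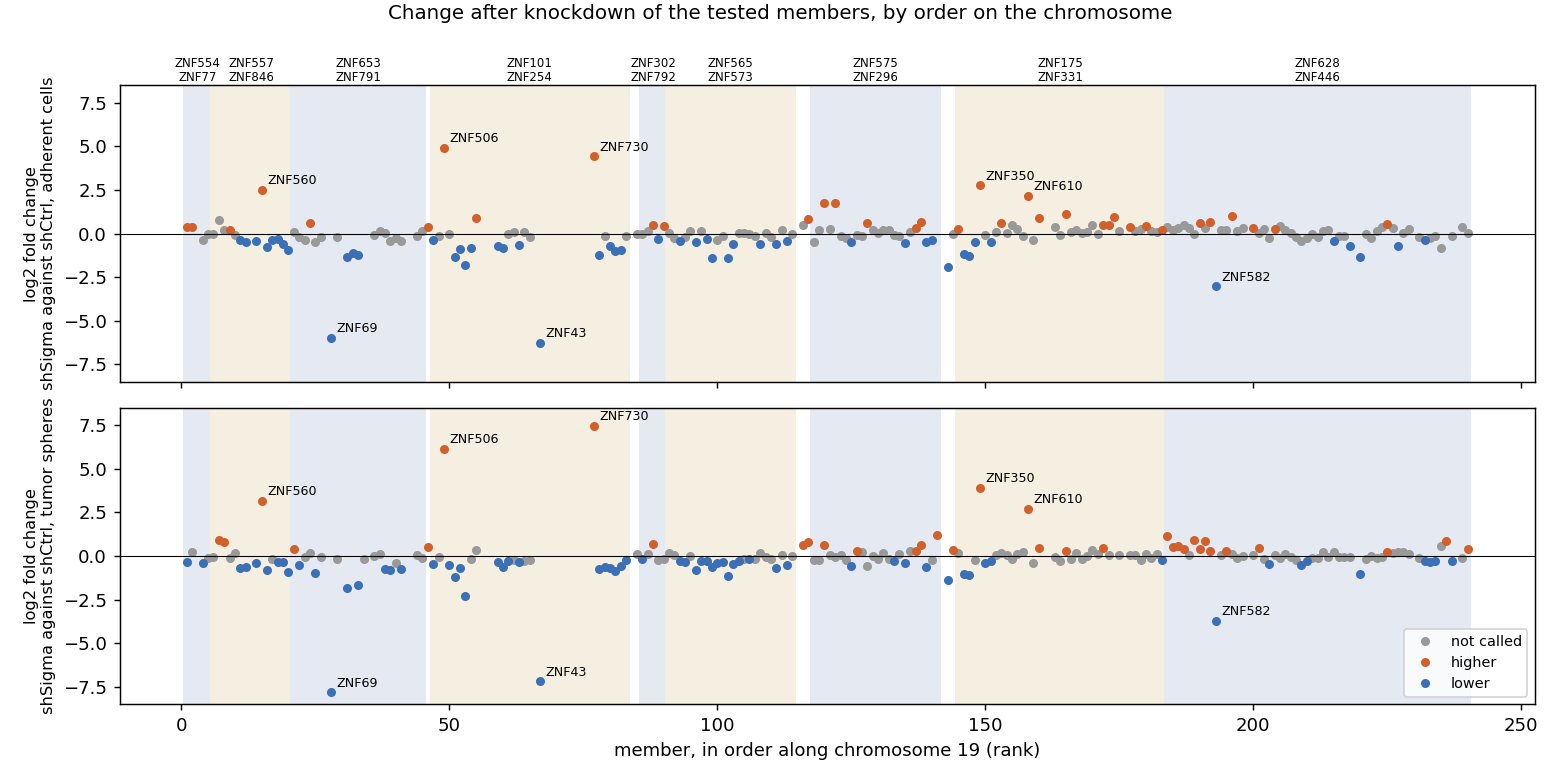
Log2 fold change of shSigma against shCtrl for each tested member, in adherent cells (top) and tumor spheres (bottom), against its rank along chromosome 19. Bands mark the 9 clusters, named by their first and last member, and color marks members called higher or lower at an adjusted p under 0.05. Fitted values of ZNF69, ZNF43, ZNF506, ZNF730 and ZNF350 rest on counts near 0 in one line. The cluster ZNF101 to ZNF254 holds 13 lower members in adherent cells and 16 in tumor spheres, with ZNF506 and ZNF730 far above the rest.

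A new cluster was begun wherever the gap between neighbouring members exceeded 1 Mb, which gave 9 clusters of at least 5 members and left 9 members outside. Over all genes tested, 22.3% were higher and 27.7% lower in adherent cells and 30.2% and 30.9% in tumor spheres. These shares are the background for the count of each cluster. The cluster with the most lower members in both cultures was ZNF101 to ZNF254 (19.7 to 24.1 Mb), the pericentromeric block that holds ZNF43, ZNF91, ZNF93, ZNF506 and ZNF730. Of its 37 members, 12 had at most 3 counts in every library and 24 were tested. In adherent cells 13 were lower and 3 higher (median -0.496), and in tumor spheres 16 were lower and 2 higher (median -0.407). The 12 members lower in both included ZNF90, ZNF93, ZNF43, ZNF724, ZNF681, ZNF675, ZNF726 and ZNF714. The summed level of its members was 232, 247 and 263 CPM in adherent shCtrl against 183, 188 and 210 CPM in adherent shSigma libraries, ordered by size. In tumor spheres it was 240, 252 and 258 against 176, 184 and 197 CPM, and the lines overlapped in neither culture. Leaving out single libraries gave 12 to 13 lower members in adherent cells and 11 to 16 in tumor spheres. No other protein-coding gene was tested inside this cluster, so the 20 nearest non-member protein-coding genes tested all lie outside it. Their medians centred on 0.221 in adherent cells and 0.080 in tumor spheres. After their subtraction 16 members were lower in adherent cells and 18 in tumor spheres. No share over all genes is given for fits with this subtraction, so their counts, here and below, have no background. With no such gene inside, this subtraction cannot address a shift of the block itself. Members of this block are close paralogs, so reads shared between them could move counts from one to another.

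ZNF90 showed the largest fall in that cluster among genes still expressed. It held 9.67, 9.26 and 9.31 CPM in adherent shCtrl and 2.52, 2.41 and 3.42 CPM in adherent shSigma libraries. In tumor spheres it held 5.44, 5.30 and 4.23 CPM against 0.605, 1.38 and 1.01 CPM. The log2 fold changes were -1.82 ± 0.148 and -2.32 ± 0.238 (adjusted p = 7.03e-05 and 5.66e-06), with lines apart as the naming of ZNF90 required. ZNF90 was also lower in tumor spheres than in adherent cells of either line (-0.92 ± 0.132 in shCtrl and -1.46 ± 0.284 in shSigma).

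In the cluster ZNF565 to ZNF573 (36.2 to 37.8 Mb) all 24 members were tested. In adherent cells 9 were lower and 0 higher, and in tumor spheres 14 were lower and 0 higher, with medians of -0.210 and -0.282. At an unadjusted p under 0.05 the count of higher members was also 0 in both cultures, and DESeq2 called 0, while 1 fit of all libraries and upper-quartile factors each called 1 in adherent cells. The 5 tested protein-coding genes between them that are no members had medians of -0.308 and -0.382, and after subtraction of the median of the 20 nearest non-members 4 and 5 members were lower and 3 and 5 higher. The adherent count of 9 was 5 without shCtrl replicate 1 or shSigma replicate 1 and 4 without shCtrl replicate 2 or shSigma replicate 2. The tumor sphere count of 14 was 9 without shSigma replicate 1. ZNF829 had the largest test statistic, with 39.4, 37.1 and 36.1 CPM in adherent shCtrl against 14, 14.1 and 16.7 CPM in adherent shSigma libraries. Its tumor sphere libraries held 23.5, 27 and 25.2 CPM against 11, 12.2 and 11 CPM (-1.40 ± 0.0921 and -1.15 ± 0.0913, adjusted p = 3.07e-05 and 6.92e-07).

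The cluster ZNF557 to ZNF846 (7.07 to 9.79 Mb) gave 8 lower and 2 higher of 14 tested members among adherent cells, and in tumor spheres 7 lower and 3 higher. The adherent count of 8 was 4, 3 and 4 without shCtrl replicate 2, shSigma replicate 1 and shSigma replicate 2. The non-members between its ends had medians of 0.127 over 31 genes and 0.224 over 34, whereas the medians of the 20 nearest non-members of each member centred on -0.252 and -0.076. Their subtraction left 3 lower members and 1 higher in adherent cells, against 8 and 3 in tumor spheres. ZNF426 (-0.77 and -0.82), ZNF846 (-0.96 and -0.94) and ZNF562 (-0.59 and -0.37) fell in both cultures. ZNF560 rose against this, from 2.38, 3.47 and 1.97 CPM in adherent shCtrl to 15.3, 14.3 and 17.6 CPM in adherent shSigma libraries. In tumor spheres it rose from 1.35, 1.93 and 1.41 to 14.6, 13.8 and 14.1 CPM (2.53 ± 0.212 and 3.17 ± 0.143, adjusted p = 8.14e-05 and 5.99e-09).

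In the cluster ZNF175 to ZNF331 (51.6 to 53.6 Mb) higher members outnumbered lower ones in adherent cells, with 12 of 36 tested members higher and 4 lower, and 7 to 18 higher under the alternative settings. In tumor spheres 5 of 35 were higher and 5 lower. Its summed level was 449, 483 and 492 CPM in adherent shCtrl against 627, 654 and 724 CPM in adherent shSigma libraries, and 459, 473 and 480 against 467, 501 and 511 CPM in tumor spheres, where the lines overlapped. ZNF83, the member with the highest level per kb in this cluster, held 90.9, 86.3 and 83.2 CPM in adherent shCtrl and 199, 186 and 215 CPM in adherent shSigma libraries. The 4 members lower in adherent cells all lie near ZNF350, namely ZNF577, ZNF649, ZNF613 and ZNF614. That count was 2 without shCtrl replicate 2, shSigma replicate 1 or shSigma replicate 2. ZNF610 rose in both cultures, from 0.401 ± 0.108 to 1.91 ± 0.325 CPM in adherent cells and from 0.295 ± 0.0812 to 1.95 ± 0.258 CPM in tumor spheres (adjusted p = 0.000476 and 9.65e-06).

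The remaining clusters were mixed, and ZNF302 to ZNF792 and ZNF554 to ZNF77 had only 5 and 4 tested members. ZNF599 of the former rose from 9.89 ± 0.609 to 14.6 ± 0.913 CPM in adherent cells and from 6.32 ± 0.357 to 10.3 ± 0.0759 CPM in tumor spheres. ZNF575 to ZNF296 (43.5 to 45.1 Mb) gave 5 higher and 4 lower of 23 in adherent cells and 5 and 4 of 24 in tumor spheres. Without adherent shCtrl replicate 1 or 2 or shSigma replicate 1 or 2 only 1 was lower, and over single tumor sphere libraries left out 2 to 5 were higher. The non-members between its ends had medians of 0.017 over 22 genes in adherent cells and -0.014 over 21 in tumor spheres. The medians of the 20 nearest non-members of each member centred on 0.489 and -0.159 instead. After their subtraction 2 members were higher and 11 lower in adherent cells, and 8 and 4 in tumor spheres. By contrast, 1 fit of all libraries gave 8 higher in adherent cells. ZNF229 of this cluster fell in tumor spheres from 25.5 ± 1.23 to 16.7 ± 0.18 CPM (adjusted p = 3.74e-05), and its fall in adherent cells (adjusted p = 0.00963) was not called in any of those 4 adherent fits (adjusted p = 0.0583 to 0.106). ZNF653 to ZNF791 (11.5 to 12.6 Mb), which holds ZNF69, gave 4 lower and 1 higher of 19 tested members among adherent cells, and in tumor spheres 8 lower and 1 higher (5 lower without shSigma replicate 2). ZNF433 of this cluster fell from 2.55 ± 0.433 to 1.06 ± 0.127 CPM in adherent cells and from 3.80 ± 0.503 to 1.08 ± 0.214 CPM in tumor spheres. The largest cluster, ZNF628 to ZNF446 (55.5 to 58.5 Mb, 57 members), gave 6 higher and 6 lower of 52 in adherent cells and 13 higher and 9 lower of 53 in tumor spheres. Its adherent count of lower members was 3 without shCtrl replicate 2, and its tumor sphere counts ranged from 7 to 11 higher and 5 to 8 lower over single libraries left out. Along the whole chromosome, 24 of 193 pairs of neighbouring tested members were called in the same direction and 12 in opposite directions in adherent cells, and 39 and 11 of 194 in tumor spheres. Neighbouring pairs of other genes were not counted, so these counts have no background and do not show that neighbours change together.

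Single members of the end cluster and outside the clusters changed strongly. ZNF582 held 1.69, 1.44 and 1.5 CPM in adherent shCtrl against 0.143, 0.154 and 0.289 CPM in adherent shSigma libraries. Its tumor sphere libraries held 2.58, 2.48 and 1.96 CPM against 0.151, 0.318 and 0.053 CPM, so that it fell by 3.01 and by 3.70 on the log2 scale without meeting the floor of the switched genes (adjusted p = 0.00017 and 4.8e-06). ZNF671 fell from 5.05 ± 0.516 to 2.10 ± 0.243 CPM in adherent cells and from 2.86 ± 0.459 to 1.40 ± 0.306 CPM in tumor spheres. Promoter methylation of ZNF582 and ZNF671 is used as a marker of cervical cancer. ZNF114, outside the clusters, fell from 5.10 ± 0.197 to 1.44 ± 0.297 CPM in adherent cells and from 5.22 ± 0.801 to 2.05 ± 0.206 CPM in tumor spheres.

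For the difference of the knockdown effect between cultures, 7 of 210 members were higher (3.33%, against 12.7% of all 14175 genes tested) and 20 lower (9.52%, against 15.6%), coded as tumor spheres minus adherent cells. ZNF genes of other chromosomes gave 18 higher and 31 lower of 199. Among called members ZNF404 had the largest difference, with 4.91, 4.48 and 4.97 CPM in adherent shCtrl against 15.5, 15.4 and 19.1 CPM in adherent shSigma libraries. Its tumor sphere libraries held 10.4, 11.9 and 12.1 CPM against 10.3, 11.5 and 11.8 CPM. The lines were thus far apart in adherent cells and overlapped in tumor spheres (interaction -1.83 ± 0.165, adjusted p = 2.65e-06). ZNF83 rose by 1.14 ± 0.0724 on the log2 scale in adherent cells and by 0.28 ± 0.0769 in tumor spheres (interaction -0.92 ± 0.117, adjusted p = 5.81e-05). ZNF471 held 22.2 ± 0.239 and 45.9 ± 3.38 CPM in adherent shCtrl and shSigma cells and 18.9 ± 0.709 and 20.3 ± 2.48 CPM in tumor spheres (interaction -0.94 ± 0.130, adjusted p = 0.000121). The count of 20 lower members ranged down to 11 when single libraries were left out, among them adherent shCtrl replicate 2, adherent shSigma replicate 3 and tumor sphere shCtrl replicate 1, and the count of 7 higher members rose to 14 without adherent shSigma replicate 3 and 11 without adherent shCtrl replicate 3.

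**Figure D2:**
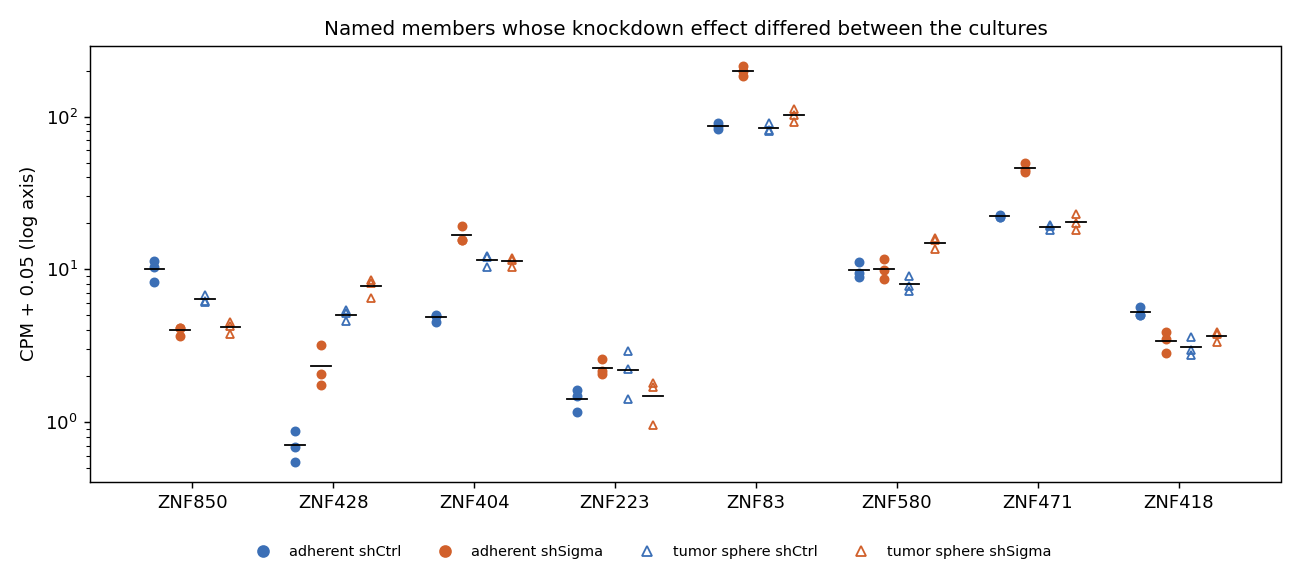
CPM plus 0.05 on a log axis of the 8 named members whose knockdown effect differed between cultures, with 1 point per library and a bar at the mean of 3 libraries. Filled circles are adherent cells and open triangles tumor spheres, in blue for shCtrl and orange for shSigma. ZNF404, ZNF83 and ZNF471 separate the lines widely in adherent cells and little in tumor spheres, and ZNF580 does so in tumor spheres.

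Between tumor spheres and adherent culture, 33 of 204 members were higher in shCtrl cells (16.2%, against 27.4% of all genes tested) and 32 lower (15.7%, against 26.3%). In shSigma cells 22 of 203 were higher (10.8%, against 21.9%) and 44 lower (21.7%, against 25.2%). ZNF genes of other chromosomes gave 46 higher and 37 lower of 198 in shCtrl cells and 44 and 51 of 198 in shSigma cells. Both comparisons share their libraries with the knockdown comparisons. Of the other protein-coding genes of chromosome 19, 342 of 740 were higher and 39 lower in shCtrl tumor spheres and 280 of 720 higher and 42 lower in shSigma tumor spheres. The median log2 fold change was 0.005 in the members against 0.538 in those genes in shCtrl cells, and -0.082 against 0.471 in shSigma cells. When the median of the 20 nearest non-members was subtracted, 122 members were lower in shCtrl and 109 in shSigma. The subtracted medians centred on positive values in every cluster. These counts are therefore relative to the neighbours and do not count members that fell in level. No share over all genes is given beside them. The shCtrl count of higher members was 19 to 21 without adherent replicate 2 or tumor sphere replicate 1, 2 or 3, and that of lower members was 20 without adherent replicate 2. The shSigma counts were 12 higher and 29 lower without tumor sphere replicate 1, 12 and 28 without tumor sphere replicate 3, and 14 higher without adherent replicate 1.

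ZNF428 had the highest called change between cultures in shCtrl cells, from 0.499, 0.634 and 0.828 CPM to 5.09, 4.53 and 5.34 CPM in shCtrl libraries (2.92 ± 0.207, adjusted p = 1.77e-05). In shSigma libraries it rose from 2.00, 3.12 and 1.69 to 8.11, 8.53 and 6.41 CPM (1.78 ± 0.237, adjusted p = 0.000768). The groups were apart in every comparison of this gene. ZNF837 was also higher in tumor spheres of both lines (1.54 ± 0.365 and 1.43 ± 0.364), and ZNF628 in those of shSigma cells (1.80 ± 0.441, adjusted p = 0.0158), the latter lost without adherent replicate 1 or tumor sphere replicate 1 (adjusted p = 0.0604 and 0.059). ZNF358 was spread from 1.31 to 8.04 CPM over the adherent shCtrl libraries, and its calls in both lines (adjusted p = 0.0482 and 0.0422) were lost without adherent shCtrl replicate 2, adherent shSigma replicate 1 or any 1 tumor sphere library. ZNF471 fell by 1.15 in tumor spheres of shSigma cells (adjusted p = 8.51e-05) and ZNF671 by 0.82 in those of shCtrl cells (adjusted p = 0.00389).

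The promoter windows of the clusters differed in what the choice by symbol did not use. The 29 windows of ZNF101 to ZNF254 had a median of 8 CpG dinucleotides, and the medians of the other clusters lay between 12 and 21.5. Members lower in adherent cells had a median of 14, those higher 18 and those not called 16. Outside ZNF101 to ZNF254 these medians were 17, 19 and 17. CCAAT on either strand occurred in all 29 windows of ZNF101 to ZNF254 and in 91.7% of those of ZNF653 to ZNF791, against 8.7% in ZNF565 to ZNF573, 50.5% of all members and 33% of all promoters.

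Of 25 genes of the KRAB corepressor pathway, 24 were tested, and 4 were higher and 8 lower in adherent cells and 8 higher and 7 lower in tumor spheres (medians -0.039 and 0.037). Over all genes tested 22.3% were higher and 27.7% lower in adherent cells and 30.2% and 30.9% in tumor spheres, so the counts lie near the background. TRIM28 held 157 ± 47.2 and 168 ± 38.8 CPM in adherent shCtrl and shSigma cells and was not called there (adjusted p = 0.892), and it was higher in tumor spheres (0.27 ± 0.0572, adjusted p = 0.00162). SETDB1 gave 0.21 ± 0.0852 in adherent cells (adjusted p = 0.0773) and was higher in tumor spheres (0.42 ± 0.0629, adjusted p = 0.000132), and MORC2, a partner of the HUSH silencing complex, was higher in both (0.36 and 0.53). The histone deacetylase HDAC1 fell by 1.04 and 0.49, the DNA methyltransferase DNMT1 by 0.87 and 0.31 and CBX3 by 0.59 and 0.47 on the log2 scale in adherent cells and tumor spheres. CBX5 rose in both (0.32 and 0.33, adjusted p = 0.00984 and 0.00026), and so did MPHOSPH8, a subunit of the HUSH complex (0.31 and 0.24). CBX1 fell in adherent cells (-0.40) and was not called in tumor spheres (-0.09), and HDAC2 was called in neither (-0.08 and -0.02). ZNF274, itself a member, which recruits SETDB1 to ZNF genes, fell by 0.39 and 0.32. EHMT2 was listed at 0 in every library. The annotation and the handling of reads with several alignments are not given, so this need not mean that it is not expressed. DAXX, among those lower in adherent cells (-1.17 ± 0.408, adjusted p = 0.0457), held only 12 to 14 counts in shCtrl and 2 to 7 in shSigma libraries there. The part of these genes in the changes of the members was not tested.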

How the data were processed

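RNA was isolated from 12 cultures of DU145 cells, 3 independent replicates in each of 4 groups. Libraries were prepared by the authors from 800 ng of RNA with a directional kit and read as single ends of 75 nt. The reads were aligned to GRCh38.p12 and counted per gene with STAR (version 2.6.1c in the submitters' processing notes), and the authors deposited the raw counts, with no normalization. The gene annotation, the strand setting of the counting and the handling of reads with several alignments are not given in the sources used here, and 180 of the members overlap another annotated gene. Groups were taken from the sample labels, and 26153 of the 28747 identifiers had an entry in GENCODE release 44.

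CPM, log2 fold changes, their standard errors and p-values were computed from these counts with edgeR 4.0.16 in R 4.3.3 (limma 3.58.1): TMM scaling, filterByExpr at a minimum count of 10, the robust quasi-likelihood test, two-sided, with a prior count of 0.125 and adjustment by Benjamini-Hochberg across every tested gene. Members were called at an adjusted p under 0.05. Each comparison used its own 6 libraries, and the interaction of hairpin and culture all 12. The smallest p an exact permutation of 3 against 3 libraries allows is 0.1, so single values were not tested that way. A member was switched where each library of one line had at most 3 counts and each of the other at least 10; folds are bounds against 3 counts per library, which cover counting error only. Named members were the switched ones with their 2 nearest tested genes on each side, the 5 highest and 5 lowest in each knockdown comparison with at least 1 CPM and groups apart, the 3 highest and 3 lowest of the other comparisons, the 5 highest per kb and the strongest of each cluster. Cluster members beyond these, and ZNF554 and ZNF331, were picked once their values had been seen. For members named as highest or lowest in a knockdown comparison, groups apart were a condition of the choice and no result. The members and all lists were chosen with earlier results of these data known. Replicates shared a number but were not paired by it. Alternatives were DESeq2 1.42.0, its size factors, upper-quartile factors, other filters and thresholds, 1 fit of all libraries, the replicate block, subtraction of the median of the 20 nearest non-members and each library left out; leaving out the 2 adherent libraries that departed together was chosen after seeing the data. The code was checked on simulated libraries that were independent and had a fixed dispersion. These libraries differ from that, so the check does not measure error rates for the members. Promoter windows were matched by symbol for 210 of 240 members from a RefSeq table on GRCh38.p14, and identity came from global alignments with Biopython 1.88. Summaries and plots used pandas 2.3.3 and matplotlib 3.10.9 under Python 3.11.15. Protein features were not analysed here, and the gene targeted by the hairpin is not reported here.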

Additional observations from a re-analysis of the deposited data

Results flagged for a closer look

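For 8 named members the interaction test in edgeR called a different knockdown effect in the 2 cultures, given as tumor spheres minus adherent cells on the log2 scale. ZNF404 (-1.83, adjusted p = 2.65e-06), ZNF83 (-0.92, adjusted p = 5.81e-05) and ZNF471 (-0.94, adjusted p = 0.000121) rose after the knockdown in adherent cells more than in tumor spheres. ZNF428 rose in both cultures and more in adherent cells (-1.16, adjusted p = 0.0189), a call lost without adherent shCtrl replicate 1 or adherent shSigma replicate 2 (adjusted p = 0.0817 and 0.0534). ZNF223 went up in adherent cells (0.63, adjusted p = 0.028, lost without shCtrl replicate 1 or 2 or shSigma replicate 2 or 3, adjusted p = 0.0556 to 0.0758) and gave -0.57 in tumor spheres (adjusted p = 0.134). The difference was called (-1.26, adjusted p = 0.0324), and was lost when any of 6 single libraries was left out (adjusted p = 0.0533 to 0.112), namely adherent shCtrl replicate 1 or 2, adherent shSigma replicate 3, tumor sphere shCtrl replicate 1 or 2 and tumor sphere shSigma replicate 1. ZNF850 fell in both cultures and less in tumor spheres (0.72, adjusted p = 0.0146). ZNF580 rose in tumor spheres from 7.98 ± 0.936 to 14.9 ± 1.29 CPM and held 9.80 ± 1.17 and 10.03 ± 1.57 CPM in adherent cells (0.87, adjusted p = 0.00438). ZNF418 fell in adherent cells from 5.17 ± 0.359 to 3.33 ± 0.529 CPM and held 3.07 ± 0.451 and 3.60 ± 0.285 CPM in tumor spheres (0.86, adjusted p = 0.00954). Its adherent call was lost without adherent shCtrl replicate 2 or shSigma replicate 2 (adjusted p = 0.0551 and 0.0526).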

How the results depend on the processing

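Values are counts of members called, higher then lower. With an adjusted p under 0.01 they were 17 and 36 after knockdown in adherent cells, 21 and 42 in tumor spheres, 3 and 9 for the interaction, 16 and 16 between cultures in shCtrl and 7 and 24 in shSigma. With a log2 fold change over 1 they were 8 and 16, 7 and 12, 0 and 3, 6 and 0, and 10 and 3 in that order. For the 2 counts of 0, an unadjusted p under 0.05 gave 2 and 0 members and DESeq2 0 and 0. DESeq2 gave 23 higher in adherent cells, 11 lower for the interaction and 28 lower between cultures in shSigma. Subtraction of the median of the 20 nearest non-members gave 19 and 11 for the interaction, 5 and 122 in shCtrl and 11 and 109 in shSigma. Those counts are relative to the neighbours and have no background over all genes. No filter on low counts gave 12 lower for the interaction. Leaving out single libraries gave 27 to 38 and 30 to 53 in adherent cells, 23 to 31 and 49 to 64 in tumor spheres, 5 to 14 and 11 to 19 for the interaction, 19 to 31 and 20 to 40 in shCtrl and 12 to 32 and 28 to 44 in shSigma. Fewer libraries then enter each fit. Switched members in adherent cells numbered 1 with a floor of 1 count and 5 with a floor of 5.

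Replicate numbers did not pair the libraries, with same-number correlations of deviations from -0.735 to 0.288, and the replicate block gave 19 and 34 in adherent cells and 13 lower for the interaction. In adherent cells it cut the higher members of ZNF175 to ZNF331 from 12 to 7, ZNF628 to ZNF446 from 6 to 3 and ZNF575 to ZNF296 from 5 to 3, and the lower members of ZNF565 to ZNF573 from 9 to 5, ZNF557 to ZNF846 from 8 to 5, ZNF575 to ZNF296 from 4 to 1 and ZNF175 to ZNF331 from 4 to 2.

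Over 1140 settings of named members, 20 changed the sign, all of values not called or of ZNF302 in tumor spheres. ZNF317 in adherent cells was 0.138 after subtraction of the neighbours' median. ZNF302 in adherent cells was 0.037 in 1 fit of all libraries, 0.031 without both departing libraries, 0.018 after subtraction, 0.027 with upper-quartile factors and -0.117 to 0.105 over single libraries left out, and in tumor spheres 0.131 after subtraction. ZNF404 in tumor spheres was -0.098 to 0.029 and ZNF628 in adherent cells -0.104 to 1.54 over single libraries left out. ZNF580 in adherent cells was 0.035 in 1 fit, 0.028 with upper-quartile factors and -0.090 to 0.134 over single libraries. ZNF471 in tumor spheres was -0.010 after subtraction. The causes were not tested. Fitted changes of members with few counts in one line, such as ZNF582, ZNF350 and ZNF506, depend on the prior count at this depth.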
